A study of Mus musculus with 4 samples.

Results

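Il23r, Il1r1, Il17re, Blk, Il17a and Il17f are 6 genes that mark type 17 T cells, and they were followed across the invariant natural killer T (iNKT) cells of the mouse thymus. All 6 were found by symbol among the 32285 genes listed for each library. The cells came from thymi of 2 inbred mouse strains, labelled BALB/c and B6, and were sorted for CD3 and for staining with CD1d loaded with the glycolipid PBS57. Each strain had 2 libraries made with a droplet-based 5' single-cell RNA kit. The labels give no age, sex or treatment, and nothing in them ties the 2 libraries of a strain to different mice, so p-values measure the spread between these libraries, which may be technical. Cells were split by the summed UMIs (unique molecular identifiers, which count distinct RNA molecules) of Tmem176a, Tmem176b, Pxdc1 and Serpinb1a. Those with at least 4 such UMIs are called marker-high and the others marker-low.

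The thymus makes iNKT cells in functional subsets, and the iNKT17 subset is the one known for making interleukin-17. Il23r encodes the specific chain of the interleukin-23 receptor, which pairs with the chain encoded by Il12rb1 and signals through STAT3. Il1r1 encodes the signalling receptor for interleukin-1. Together with a T cell receptor signal these cytokines drive release of the interleukins encoded by Il17a and Il17f. Il17re encodes the receptor chain for interleukin-17C, and Blk a kinase of the Src family that is best known from B cells and is also needed by type 17 γδ T cells.

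On GRCm38 (GENCODE vM21), Il23r lies on the minus strand at chr6:67422932-67491855, 46744 bases from Il12rb2. Il1r1 lies on the plus strand at chr1:40225080-40317257 and overlaps Gm38070, an unvalidated transcript on the same strand, so reads of the overlap cannot be told apart. Il17re lies on the plus strand at chr6:113458484-113470758 and ends 669 bases before Il17rc. Blk lies on the minus strand at chr14:63372836-63417037. Il17a (chr1:20730905-20734496, plus strand) and Il17f (chr1:20777146-20790617, minus strand) are separated by 42650 bases. All 6 are annotated as protein-coding.

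Because the 3 receptor genes were counted in the same cells, the 250 bases upstream of RefSeq start sites (GRCm38.p6) were searched for AGGTCA, a core half-site bound by nuclear receptors, on both strands. RefSeq promoter entries were matched for 5 of the 6 genes, and Blk had none. The window of Il23r held 2 matches, at 229 and 66 bases before the start. Il17a held 1 match at 120 bases and Il17f 1 match at 58 bases before the start. The windows of Il17re and of both Il1r1 start sites held none. Of 32851 promoter windows of this length, 14.0% held at least 1 match and 1.36% held 2 or more. Of the other motifs searched, TGANTCA (in 6.75% of windows) matched once, in Il17a and apart from its AGGTCA, and TTCNNNGAA (7.02%) did not match in any of them. A match is a description of letters and not evidence of binding. The windows of Il23r (chr6:67491856-67492105, minus strand), Il1r1 (chr1:40224830-40225079, plus strand) and Il17a (chr1:20730655-20730904, plus strand) are shown 5′ to 3′ to contrast windows with 2, 0 and 1 matches, with AGGTCA or its reverse complement in capitals.
Il23r: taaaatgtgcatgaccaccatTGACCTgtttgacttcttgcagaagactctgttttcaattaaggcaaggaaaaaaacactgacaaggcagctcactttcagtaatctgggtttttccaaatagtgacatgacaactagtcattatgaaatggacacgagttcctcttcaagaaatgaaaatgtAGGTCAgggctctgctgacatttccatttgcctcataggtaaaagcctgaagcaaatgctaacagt
Il1r1: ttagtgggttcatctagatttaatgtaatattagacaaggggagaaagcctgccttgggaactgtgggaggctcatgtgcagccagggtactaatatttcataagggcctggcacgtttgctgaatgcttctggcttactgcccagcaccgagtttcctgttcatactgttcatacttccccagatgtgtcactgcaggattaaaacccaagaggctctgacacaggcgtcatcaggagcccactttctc
Il17a: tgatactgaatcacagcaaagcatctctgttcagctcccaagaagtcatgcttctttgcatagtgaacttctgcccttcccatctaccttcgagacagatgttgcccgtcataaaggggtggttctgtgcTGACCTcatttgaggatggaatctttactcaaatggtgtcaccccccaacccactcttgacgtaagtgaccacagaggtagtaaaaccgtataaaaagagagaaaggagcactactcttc

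Filtering kept 14895 cells, from 1864 (BALB/c 1) to 8790 (B6 2) per library, with total deposited UMIs of 20406245 to 82904358 per library. Pairs of libraries shared 4 to 33 cell barcodes. Marker-high cells numbered 322 in BALB/c 1, 192 in BALB/c 2, 98 in B6 1 and 220 in B6 2. They made up 17.3% and 10.0% of kept BALB/c cells and 4.21% and 2.50% of kept B6 cells, so the strains did not overlap. The means were 13.7% ± 5.12 and 3.36% ± 1.21 (SD, n = 2), and the exact two-sided permutation p was 0.33, the smallest that 2 against 2 libraries can give.

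The iNKT17 label was checked in the marker-high cells against genes that the grouping did not use. Summed Ccr6 and Sdc1 RNA was 140.4 to 191 CPM (UMIs of a gene per 1000000 UMIs) in marker-high cells and 1.46 to 4.17 CPM in marker-low cells of the 4 libraries. Cd3e was counted in 90.8% to 100% of marker-high cells. Trav11, the variable segment of the invariant chain, was counted in 5.46% to 14.3% of marker-high and 7.03% to 15.5% of marker-low cells. Sdc1 was counted in 51.0% to 65.8% and Ccr6 in 23.0% to 38.8% of marker-high cells, against 0.583% to 1.49% and 0.0700% to 0.639% of marker-low cells. RNA of other cell types was counted as well. In B6 1, B cell genes summed to 1153 CPM (59.97 to 228 CPM in marker-high cells of the other libraries) and 9 of 10 were counted, and genes of myeloid and dendritic cells summed to 980 CPM (12.5 to 334 CPM elsewhere). At least 4 UMIs of B cell genes, or at least 10 of the MHC class II genes Cd74 and H2-Aa, were found in 10 of the 98 marker-high cells of B6 1 (10.2%) and in 0.455% to 2.60% of those of the other libraries. The fits of strain differences are given with and without such cells. Marker-high cells without any of the 4 main genes, which were more frequent in both B6 libraries, are described further on.

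The interleukin-23 and interleukin-1 receptor genes were close to absent in the sum of marker-low cells, whereas Blk was counted at a low level there too. Within that sum, cells with 1 to 3 marker UMIs held more of both receptors' UMIs than their share of cells, as given further on. Il23r stood at 166 and 169 CPM in the marker-high cells of BALB/c 1 and 2 and at 99.8 and 243 CPM in those of B6 1 and 2. In marker-low cells it stood at 3.13 and 2.24 CPM in BALB/c and at 0.437 and 1.35 CPM in B6. Every marker-high sum lay above every marker-low sum, and the B6 libraries were the lowest and the highest of the marker-high sums. Il23r was 6.67 (log2, SE 0.31) higher in marker-high cells in a paired fit over the 4 libraries (edgeR, adjusted p = 9.6e-06).

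Il1r1 stood at 153, 145, 74.8 and 159 CPM in marker-high cells (BALB/c 1 and 2, then B6 1 and 2). It stood at 3.45, 3.11, 0.492 and 1.25 CPM in the marker-low cells of the same libraries. The groups of cells did not overlap, and B6 1 was the low library in both. The difference was 6.13 (log2, SE 0.29; edgeR adjusted p = 9.64e-06).

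Il17re stood at 129, 103, 63.4 and 95.9 CPM in marker-high cells and at 1.35, 1.27, 1.64 and 1.28 CPM in marker-low cells, in the same order of libraries. Its marker-high level was lowest in B6 1, while the counting intervals of its marker-low levels overlapped. The difference was 6.10 (log2, SE 0.17; edgeR adjusted p = 6.38e-07).

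Blk stood at 423, 344, 212 and 271 CPM in marker-high cells and at 15.3, 10.7, 2.68 and 6.77 CPM in marker-low cells. In both groups of cells the BALB/c libraries lay above the B6 libraries. The difference between the groups of cells was 5.23 (log2, SE 0.23; edgeR adjusted p = 8.17e-06).

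With Il17a, described further down because most of its UMIs came from 1 cell, all 5 members tested were higher in marker-high cells by edgeR, against a background of 7.22% of 12690 genes called higher. Il17f did not pass the filter on low counts and was not tested in any comparison. For Il23r, Il1r1, Il17re and Blk the call held in each of the 18 other settings tried, including the removal of each library in turn. Against marker-low cells with 0 marker UMIs (a choice made after seeing the data) the differences were 8.78 for Il23r, 7.51 for Il1r1, 6.83 for Il17re and 5.82 for Blk (log2).

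**Figure D1:**
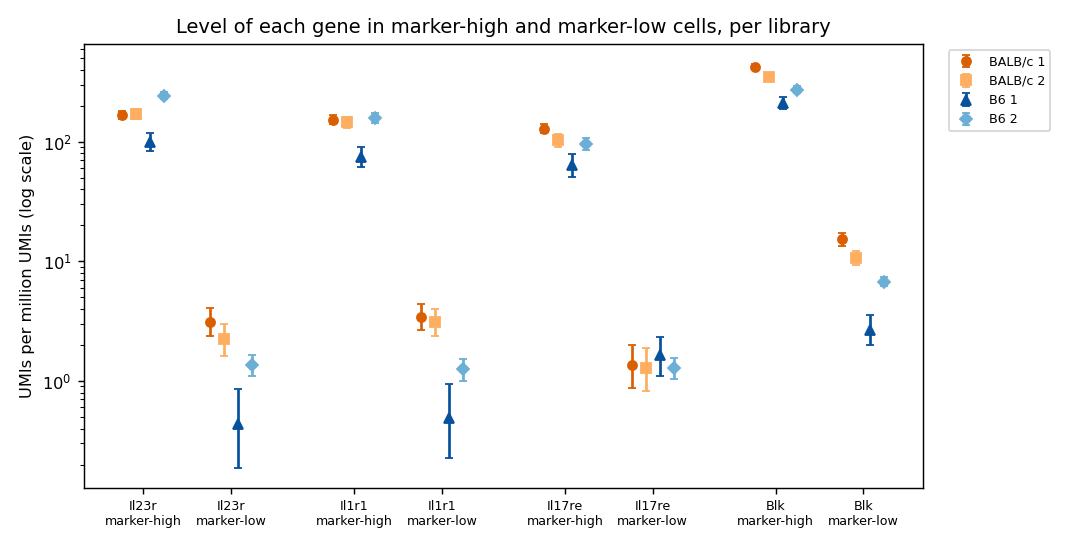
Level of Il23r, Il1r1, Il17re and Blk (CPM, log axis) in the summed marker-high and marker-low cells of each library, with exact 95% Poisson intervals that cover counting error only. Marker-high sums lie between 63.4 and 423 CPM and marker-low sums between 0.437 and 15.3 CPM, and B6 1 is the lowest library in marker-high cells for each gene.

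The share of a gene's UMIs that lay in marker-high cells shows how specific it was within a library. These cells held 17.5%, 11.7%, 7.12% and 3.84% of all UMIs in that order of libraries. They held 91.8%, 90.9%, 94.6% and 87.8% of the Il23r UMIs, and 90.3%, 86.0%, 92.1% and 83.6% of the Il1r1 UMIs. The strains overlapped in these shares for both receptors. The share also follows how many marker-high cells a library holds, so the ratio of the marker-high to the marker-low level is given beside it. This ratio was 53.0 and 75.5 in BALB/c against 228 and 180.1 in B6 for Il23r, and 44.2 and 46.6 against 152 and 127 for Il1r1. By the ratio the strains did not overlap, and both B6 libraries were the higher ones. The marker-low level behind the ratio includes cells with 1 to 3 marker UMIs. In cells with 0 marker UMIs Il23r stood at 0.182 and 0.623 CPM in BALB/c and 0.300 and 0.454 CPM in B6, which overlapped. Il1r1 stood there at 1.03 and 1.19 CPM in BALB/c and 0.060 and 0.712 CPM in B6, which did not overlap.

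For Il17re the shares were 95.3% and 91.4% in BALB/c against 74.8% and 75.0% in B6. They did not overlap, with a mean difference of 18.5 percentage points (93.4% ± 2.71 against 74.9% ± 0.149, SD, n = 2, exact permutation p = 0.33, the smallest possible). The ratio of its levels was 95.3, 80.7, 38.7 and 75.1, so B6 2 lay near BALB/c by this measure. For Blk the shares were 85.4%, 80.9%, 85.8% and 61.6%, with B6 2 the lowest. The ratio of its levels was 27.7, 32.0, 79.1 and 40.1, with both B6 libraries above both BALB/c libraries. In cells with 0 marker UMIs Blk stood at 7.05, 6.575, 2.28 and 5.69 CPM, with B6 2 near BALB/c.

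The 4 genes were also higher in cells with more marker UMIs. In cells with 0 marker UMIs, Il23r stood at 0.182, 0.623, 0.300 and 0.454 CPM (BALB/c 1 and 2, then B6 1 and 2). In cells with 20 or more it stood at 204, 252, 180 and 411 CPM. On either side of the threshold, cells with 3 marker UMIs had 75.4, 22.3, 0 and 31.7 CPM of Il23r, and those with 4 had 42.1, 53.5, 47.2 and 80.8 CPM. In 3 libraries the level was higher at 4 marker UMIs than at 3, and in BALB/c 1 it was lower. The single bins are thin, with 16 to 62 cells each.

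Il1r1 went from 0.060 to 1.19 CPM at 0 marker UMIs to between 117 and 232 CPM at 20 or more. Il17re went from 0.304 to 1.32 CPM to between 114 and 174 CPM. Blk went from 2.28 to 7.05 CPM to between 424 and 515 CPM. Cells with 1 to 3 marker UMIs, which were 6.04% to 9.86% of marker-low cells, held 94.8%, 75.0%, 37.5% and 68.8% of the marker-low Il23r UMIs. They held 47.2% to 88.9% of those of Il1r1, 26.7% to 80.0% of those of Il17re and 22.0% to 59.0% of those of Blk.

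**Figure D2:**
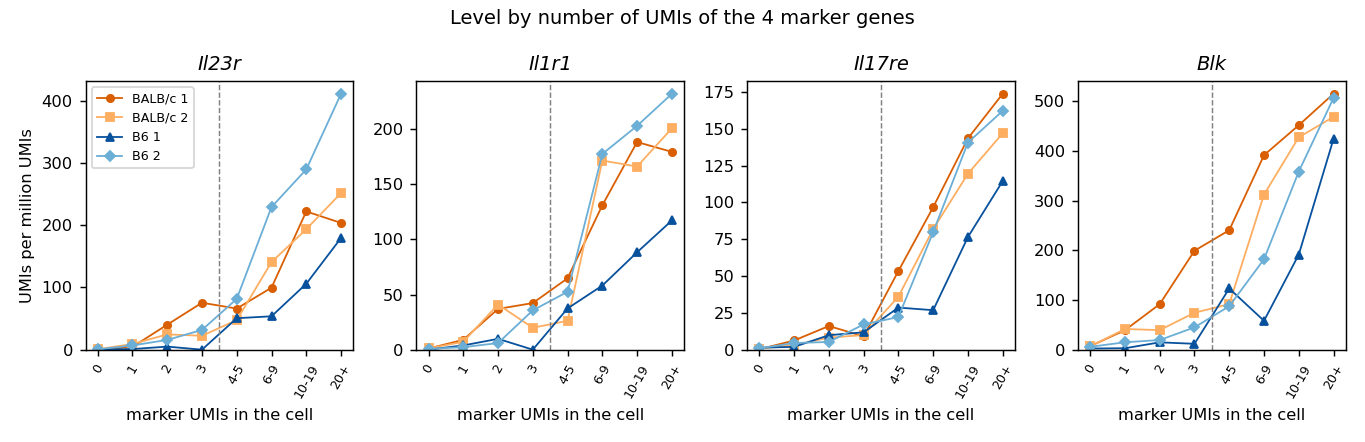
Level of each gene (CPM, linear axis) against the number of UMIs of Tmem176a, Tmem176b, Pxdc1 and Serpinb1a in a cell, 1 line per library, with the dashed line between 3 and 4. Il23r goes from at most 0.623 CPM at 0 marker UMIs to at least 180 CPM at 20 or more.

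Among marker-low cells, classes were set by at least 4 UMIs of fixed marker genes and serve as a measure of background. In cells of the iNKT1 type (Tbx21, Cxcr3, Klrd1, Il2rb, Nkg7) Il23r stood at 0.556, 1.84, 0.116 and 0.568 CPM in the same order of libraries, and Blk at 2.78, 3.42, 0.695 and 1.58 CPM. In cells of the iNKT2 type (Il4, Il13, Plac8, Izumo1r, Ccr4) Il23r stood at 0.948, 2.20, 0 and 1.22 CPM. The 0 came from 102 cells, where 3 UMIs would be 1.51 CPM.

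Blk was the member with the clearest signal in another class. It stood at 12.2, 11.01, 4.04 and 15.2 CPM in cells of the iNKT2 type, above its level in cells of the iNKT1 type in each library. It was counted in 5.89%, 6.53%, 4.90% and 7.77% of cells of the iNKT2 type. The marker-low cells of the B cell type were 13 in all (3, 6, 3 and 1 per library), and 10 of them had Blk UMIs while none had Il23r, Il1r1 or Il17re UMIs. Il17re stood at 15.3 CPM (11 UMIs in 176 cells) in the double-positive thymocyte type of B6 1 and at 2.27 to 6.55 CPM in that type in the other libraries.

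Depth differs between these classes, so each cell was also thinned to 4000 UMIs. Unthinned, Il23r was counted in 75.5%, 71.9%, 53.1% and 64.1% of marker-high cells (median 10923 to 12136.5 UMIs) and in 0.224% to 1.36% of marker-low cells (median 6876 to 11029.5 UMIs). After thinning the shares were 44.8%, 46.1%, 27.1% and 45.4% of 319, 191, 96 and 218 marker-high cells. They were at most 0.198% of cells of the iNKT1 type and at most 0.864% of cells of the iNKT2 type. Among marker-high cells B6 1 was the low library, and B6 2 lay within the range of BALB/c. The strain means were 45.5% ± 0.877 and 36.2% ± 13.0 (SD, n = 2).

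Thinned shares of marker-high cells with Il1r1 were 44.5% and 48.7% in BALB/c against 21.9% and 34.9% in B6. Those with Il17re were 38.6% and 36.6% against 19.8% and 27.5%, and those with Blk 74.0% and 61.3% against 46.9% and 46.3%. For these 3 genes every BALB/c library lay above every B6 library. The differences of the means were 18.2, 13.9 and 21.0 percentage points, each with an exact permutation p of 0.33, the smallest possible. The range in cells of the iNKT1 type was 0% to 0.395% for Il1r1, 0% to 0.420% for Il17re and 0.185% to 0.420% for Blk. In cells of the iNKT2 type it was 0% to 1.12%, 0% to 0.909% and 3.09% to 4.0% for the same genes. In the double-positive thymocyte type Il17re was counted in 3 of 39 thinned cells of B6 1 (7.69%) and in 0% of those of each other library. A count of 0 in the 1083 thinned cells of the iNKT1 type of B6 1, as for Il23r and Il17re, allows a share of up to 0.340% (exact 95% bound). This limits cells with a counted UMI at that depth, not cells that express the gene. Thinning left out 1 to 3 marker-high cells and 32 to 814 cells of the iNKT1 type per library. It also left out 1 to 16 cells of the iNKT2 type and 118 to 250 of the double-positive type.

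The 4 genes were counted together in the same cells. At least 2 of them were counted in 89.1%, 82.8%, 60.2% and 66.8% of marker-high cells, and all 4 in 49.1%, 39.6%, 26.5% and 38.6%, in the order BALB/c 1, BALB/c 2, B6 1, B6 2. At least 2 were counted in 0.314% to 2.14% of marker-low cells. Of marker-high cells with Il23r, 82.7%, 81.9%, 76.9% and 88.7% also had Il1r1, against 45.6%, 38.9%, 15.2% and 8.86% of marker-high cells without Il23r. This co-occurrence was seen in each library and was widest in B6 2.

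Marker-high cells with none of the 4 genes were 27 of 322 and 25 of 192 in BALB/c (8.39% and 13.0%) and 32 of 98 and 56 of 220 in B6 (32.7% and 25.5%). Both B6 libraries had the larger share. In these cells the median number of marker UMIs was 4 to 5, against 14 to 19 in marker-high cells with at least 2 of the genes. Their median UMIs of the 5 iNKT1 class genes stood at 2 for each BALB/c library and at 11.5 and 15.5 for B6 1 and 2, against 1 in each library in cells with at least 2 of the genes. The marker-high group of B6 thus held a larger share of cells without the 4 genes and with iNKT1 RNA. The part of these cells in the strain comparisons was not tested.

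**Figure D3:**
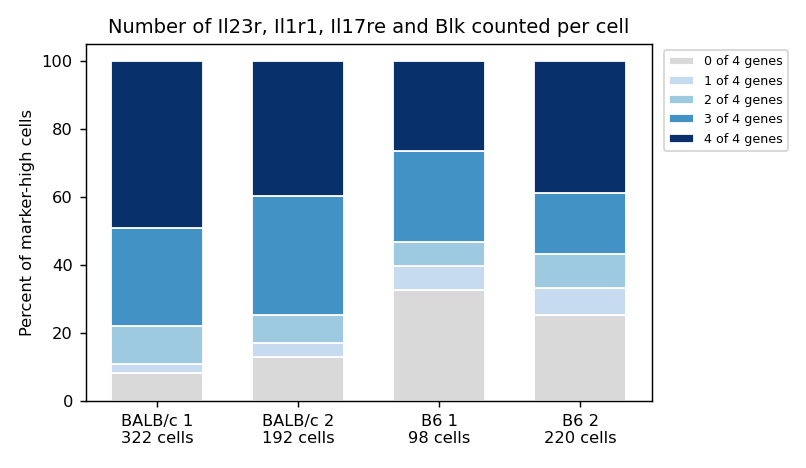
Share of marker-high cells (percent, bars stacked to the whole) in which 0, 1, 2, 3 or 4 of Il23r, Il1r1, Il17re and Blk were counted, per library. The share with none is 8.39% and 13.0% for the BALB/c libraries and 32.7% and 25.5% for the B6 libraries.

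Over all kept cells Il23r, Il1r1 and Blk were higher in BALB/c. Il23r stood at 31.5 and 21.8 CPM in BALB/c and at 7.51 and 10.6 CPM in B6, and Il1r1 at 29.5 and 19.6 against 5.79 and 7.30 CPM. Il17re stood at 23.6 and 13.1 against 6.04 and 4.91 CPM, and Blk at 86.4 and 49.7 against 17.6 and 16.9 CPM. Both BALB/c libraries lay above both B6 libraries for each of these 4 genes, and BALB/c 1, with the most marker-high cells, was the highest.

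The strain difference over all cells was 1.94 for Il1r1 (log2, SE 0.24; edgeR adjusted p = 0.0297), 2.02 for Blk (SE 0.29; 0.0354) and 1.58 for Il23r (SE 0.25; 0.0413). For Il17re it was 1.79 (SE 0.33) with an adjusted p of 0.0545. Thus 3 of the 4 members tested were called, against a background of 3.64% of 12878 genes called higher. DESeq2 called 4. Without cells with B cell or MHC class II RNA all 4 were called, with Il17re at 1.80 (adjusted p = 0.0421). With no TMM factors Il23r had an adjusted p of 0.0532. Without BALB/c 1 or without BALB/c 2 no gene of the table was called, and the 3 members' adjusted p ranged from 0.104 to 0.321. In such sums a higher share of marker-high cells and more RNA per marker-high cell cannot be told apart, so the marker-high cells were also compared alone.

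Within the marker-high cells no member was called between the strains. Of the levels given above, those of Il23r and Il1r1 overlapped, with B6 1 lowest and B6 2 highest. Blk and Il17re did not overlap, with both BALB/c libraries above both B6 libraries. In cells with 20 or more marker UMIs (29 to 102 cells per library) the strains overlapped for both genes. There Blk stood at 515, 468.5, 424 and 506.5 CPM (BALB/c 1 and 2, then B6 1 and 2). In the same order Il17re stood at 174, 147, 114.5 and 162 CPM. Of the 5 members tested, edgeR called 0, against a background of 1.05% of 10045 genes called by edgeR. An unadjusted p under 0.05 was found for 2 (Blk and Il17re), and DESeq2 called 1 (Blk). The edgeR background is not a base for the counts by unadjusted p or by DESeq2.

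The BALB/c over B6 difference in marker-high cells was 0.66 for Blk (log2, SE 0.16; edgeR adjusted p = 0.169) and 0.52 for Il17re (SE 0.19; 0.324). It was 0.34 for Il1r1 (SE 0.30; 0.685) and -0.03 for Il23r (SE 0.35; 0.991). These do not show that the strains are alike. Blk had an adjusted p of 0.0449 by DESeq2 (0.65), and with a threshold of 8 marker UMIs its difference was 0.35. It was 0.37 when all cells with B cell or myeloid RNA by a broader rule were removed. That rule takes 17.4% to 37.8% of marker-high cells and also 12.8% to 31.8% of marker-low cells. Without cells with B cell or MHC class II RNA (a choice made after seeing the data) the differences were 0.63 for Blk, 0.47 for Il17re, 0.28 for Il1r1 and -0.07 for Il23r, and no member was called.

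The sign for Il23r turned with which B6 library was kept, and it also turned in other settings, given at the end, that kept both. Without B6 1 it was -0.47 (log2, SE 0.12; edgeR adjusted p = 0.0373), and without B6 2 it was 0.67 (SE 0.13; 0.0300). Il1r1 was -0.03 without B6 1 and 0.91 (adjusted p = 0.00999) without B6 2. Blk was higher in BALB/c both ways, at 0.57 (adjusted p = 0.0296) without B6 1 and 0.78 (adjusted p = 0.0311) without B6 2. With 1 library left in B6, that library is assumed to vary like those of BALB/c.

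The file headers name a later version of the counting software for B6 2 than for the other 3 libraries, so the fit without B6 2 is also the comparison within 1 version. In marker-high cells B6 2 stood above B6 1 by 1.28 for Il23r, 1.08 for Il1r1, 0.59 for Il17re and 0.36 for Blk (log2 ratio of CPM), with a median of 0.14 over all 7765 genes compared. The median was -0.02 over the 25% of genes with the shortest introns and 0.47 over the 25% with the longest. Il23r (66436 intronic bases) and Il1r1 (85815) belong to the latter, Blk (41504) and Il17re (6407) do not. Without cells with B cell or MHC class II RNA the same ratios were 1.10, 0.89, 0.42 and 0.26. The part of intron reads in the difference between the B6 libraries was not tested.

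In the marker-low cells, where the members' RNA was scarce, no member was called between the strains. Il23r, Il1r1 and Blk were higher in both BALB/c libraries than in either B6 library at the levels given above, and Il17re was not. The differences were 1.88 for Il1r1 (log2, SE 0.46; edgeR adjusted p = 0.0770), 1.54 for Il23r (SE 0.54; 0.150), 1.47 for Blk (SE 0.45; 0.118) and -0.08 for Il17re (SE 0.32; 0.885). Of these 4, edgeR called 0, against a background of 9.17% of 12556 genes called by edgeR. An unadjusted p under 0.05 was found for 3, and DESeq2 called 2 (Il1r1 and Blk). For these counts too the edgeR background is not a base. Without B6 1 the adjusted p was 0.0184 for Il1r1 and 0.0202 for Blk, and without B6 2 it was 0.0189 for Il1r1, 0.0131 for Blk and 0.0337 for Il23r (2.61, log2). Without cells with B cell or MHC class II RNA the differences were 1.88 for Il1r1, 1.54 for Il23r, 1.39 for Blk and -0.06 for Il17re, and edgeR again called 0.

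The strain difference was smaller in marker-high than in marker-low cells for Il23r and Il1r1 in the test of the difference itself. The interaction was -1.60 for Il23r (log2, SE 0.23; edgeR adjusted p = 0.00444) and -1.55 for Il1r1 (SE 0.20; 0.00272). It was -0.77 for Blk (SE 0.23; 0.118) and 0.48 for Il17re (SE 0.31; 0.515). Thus 2 of the 5 members tested were called, against a background of 3.19% of 12690 genes. Without cells with B cell or MHC class II RNA it was -1.61 for Il23r and -1.57 for Il1r1, and both were called. The calls were lost in 4 settings. With marker-low cells of 0 marker UMIs alone the interaction was -0.31 for Il23r (adjusted p = 0.829) and -0.94 for Il1r1 (0.249), and with a threshold of 2 it was -0.21 (0.847) and -0.74 (0.200). With Tmem176a and Tmem176b as the only markers it was -0.36 (0.605) and -0.23 (0.798), and without B6 2 it was -1.89 (0.0798) and -1.77 (0.0546).

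**Figure D4:**
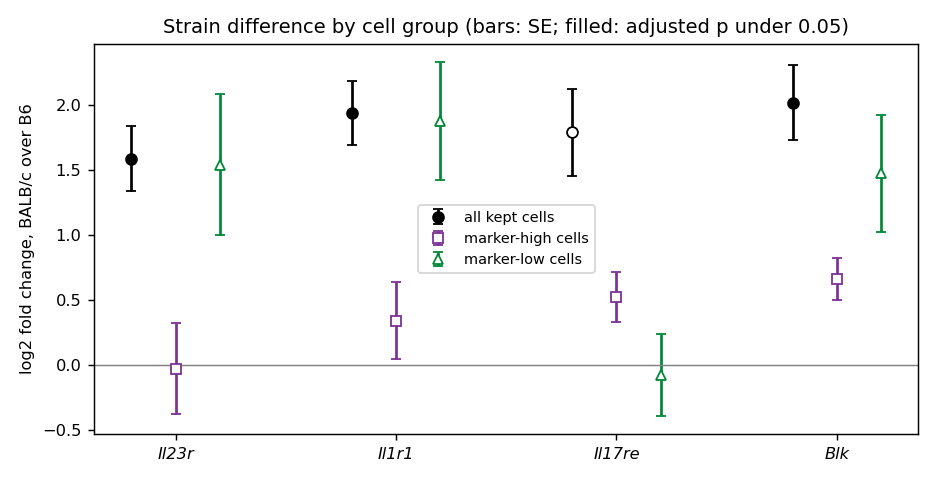
Strain difference (log2 fold change, BALB/c over B6, bars are SE) of the 4 genes in all kept cells, in marker-high cells and in marker-low cells. Filled symbols passed an adjusted p of 0.05, which Il23r, Il1r1 and Blk did over all kept cells, and the marker-high values lie between -0.03 and 0.66.

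The cytokine genes were nearly silent. Il17a had 375 UMIs in 16 of the 14895 kept cells, of which 14 were marker-high, and 355 of these UMIs came from 1 marker-high cell of BALB/c 2. In that cell Il17a made up 1.11% of 31954 UMIs, and it held 161 marker UMIs, 6 Il23r UMIs and 44 Il4 UMIs. Of the 16 cells, 12 had a single Il17a UMI. Il17a stood at 0.255, 137, 0 and 4.21 CPM in marker-high cells, where the 1 cell gave 355 of the 356 UMIs behind the 137 CPM and where 3 UMIs in B6 1 would be 2.14 CPM.

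The edgeR fit gave Il17a as 8.58 (log2, SE 0.44, adjusted p = 3.74e-05) higher in marker-high cells and 4.64 (SE 2.24, adjusted p = 0.436) higher in BALB/c within them. Without that cell Il17a no longer passed the filter on low counts and was not tested. In B6 2, which does not hold the cell, 12 of 14 Il17a UMIs lay in marker-high cells, at 4.21 against 0.0281 CPM. Il17f had 13 UMIs in 6 cells, 2 of them marker-high cells of BALB/c 1 and 4 marker-low cells of B6 2. No cell had UMIs of both cytokines. RNA of Il23r, Il1r1 and Il17re was each counted in 45.9% to 75.5% of the marker-high cells of a library, while that of the cytokines was counted in 16 of 832 at a depth of 10923 to 12136.5 median UMIs.

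Genes of the same pathways were read from lists chosen with earlier results of these data known. Genes named with a log2 difference were among those of lowest p, up to 4 per list and comparison. Of all 12690 genes tested, 7.22% were called higher and 7.08% lower in marker-high cells. These shares are the base for each count of edgeR calls between cell groups below. Counts by unadjusted p or by DESeq2, between cell groups or strains, have no such base here and are not read as an excess. Of 17 genes of the iNKT17 programme, 16 were higher and 0 lower in marker-high cells (median 1.08, against -0.03 over all genes tested, log2). Among them were Sdc1, a surface proteoglycan, at 5.99 and Aqp3, a water and glycerol channel, at 3.57. Between strains in marker-high cells edgeR called 0 of the 17, 8 had an unadjusted p under 0.05 and DESeq2 called 3. Ccr6, a chemokine receptor, stood at 45.7 and 49.6 CPM in BALB/c against 115 and 99.7 CPM in B6, a difference of -1.18 (SE 0.17; edgeR adjusted p = 0.0503), opposite in sign to that of Blk.

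Of the IL-23 and IL-12 receptor pathway, 3 of 7 tested genes were higher and 2 lower in marker-high cells (median 0.19). Il12rb1, the partner chain of Il23r, was 1.03 higher (SE 0.10; edgeR adjusted p = 0.000353), Stat3 0.75 higher and Socs3, a STAT3 target and inhibitor, 4.18 higher. Il12rb2, the chain that makes the IL-12 receptor in place of Il23r, was lower by 2.61 (log2 change -2.61, SE 0.23). It stood at 0.255, 5.0, 13.5 and 15.8 CPM in marker-high and at 9.98, 20.7, 62.4 and 103 CPM in marker-low cells, so each library had less of it in marker-high cells, whereas its neighbour Il23r was higher there. It was still counted in 11.2% and 10.0% of the marker-high cells of B6 1 and 2.

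Of the IL-1 receptor pathway, 2 of 10 tested genes were higher and 1 lower (median 0.07), the latter near the 7.08% over all genes. They were Il18r1 (1.08), Myd88, the shared adaptor (0.34), and Traf6 (-0.46). Il1rap, the co-receptor of Il1r1, differed by 1.04 (SE 0.54, adjusted p = 0.469) between strains in marker-high cells. Of the IL-17 family and receptors, 3 of 5 were higher (median 0.45). They were Il17rc at 4.91 (3.08 to 6.32 CPM in marker-high cells), Il17rb at 0.80 and the adaptor Traf3ip2 at 0.45, while Il17ra, the chain with which Il17re pairs, stood at -0.03 (SE 0.11, adjusted p = 0.945). Of 9 type 17 cytokines and factors tested, 5 were higher and 1 lower (median 1.26), among them Batf at 1.38 and Rora at 1.57. Rora and Maf are also in the iNKT17 list.

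Of 13 other genes of Src family kinases and their regulators, 0 were higher and 4 lower in marker-high cells (edgeR, median -0.26, 6 with an unadjusted p under 0.05, 4 called by DESeq2). The lower ones were Ptprc at -0.91, Pag1 at -0.80, Lck at -0.36 and Fgr at -2.26. Blk thus differed in direction from these 4 genes, of which only Lck and Fgr are themselves kinases of the Src family. In none of these 5 further pathway lists was a gene called between strains in marker-high cells by edgeR. The numbers with an unadjusted p under 0.05, given without a share over all genes, were 4, 3, 0, 4 and 1 in the order given here. DESeq2 called 0 in each.

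Lists of other cell types were read in the same way, against 7.22% of all genes called higher and 7.08% called lower in marker-high cells. Of 11 iNKT1 genes, 9 were lower in marker-high cells. Within the marker-high cells 5 were lower in BALB/c than in B6, among them Tbx21 at -3.36 and Cxcr3 at -3.07. Between strains in these cells 1.05% of 10045 genes were called in either direction. The strain difference of the 11 iNKT1 genes had a median of -2.79, against -0.01 over all genes. Their summed level in marker-high cells was 264 and 308 CPM in BALB/c and 1678 and 926 CPM in B6, beside the lower Blk and Il17re of B6. Of 7 γδ T cell genes, a list that holds Blk itself, 3 were higher and 0 lower in marker-high cells. Trdc, the constant segment of the δ chain, was counted in 0.455% to 2.60% of marker-high cells, and Tcrg-C1 in 60.2% to 79.7%. Of the other lists, B cell genes were higher for 1 of 9 tested (Cd79b), innate lymphoid genes higher for 1 and lower for 1 of 7, double-positive thymocyte genes lower for 6 of 7, and early iNKT genes lower for 5 of 7. The single calls among B cell and innate lymphoid genes are near the share over all genes. The iNKT2 genes were higher for 1 and lower for 4 of 9. Of 5 myeloid and dendritic genes tested, edgeR called 0, as did DESeq2, and 0 had an unadjusted p under 0.05. Heat shock and early response genes were read as a sign of handling. Within marker-high cells 1 of 9 tested was higher in BALB/c (Dnajb1, at 1.35), against the 1.05% of all genes called between strains. Hspa1b stood at 234 and 481 CPM in BALB/c and at 23.5 and 3.86 CPM in B6 (4.85, SE 0.84, edgeR adjusted p = 0.0816), and the part of handling in the strain comparisons was not tested.

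Genes of like pattern were ranked by Pearson r of log2(CPM + 1) over 16 sums (4 libraries by 4 bins of marker UMIs) among 5801 genes. The sums of 1 library share its depth and cells, so r is a description. Il23r was most like Il1r1 (0.990), Sdc1 (0.988), Blk (0.977), Il17re (0.975) and Fam83a (0.973). Il1r1 was most like Il23r, Sdc1 (0.985), Blk (0.984), Fam83a (0.984) and Coro2b (0.982). Among the genes most like Il17re were Sdc1 (0.990), Aqp3 (0.984), Fam83a (0.978) and Lingo4 (0.977). Blk was most like Rhobtb1 (0.986), Socs3 (0.984), Il1r1 (0.984), Ckb (0.982) and Coro2b (0.978). The first 2 receptors were each other's nearest gene, Il17re stood nearest to Sdc1, and Blk shared Coro2b with the list of Il1r1.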

How the data were processed

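For each library the authors deposited UMI counts (whole numbers, not normalized) by gene and barcode. Cell Ranger 7.1.0 and mm10 are named in the submitters' processing notes. Per the file headers, 7.1.0 was used for B6 2 and 6.0.0 for the other libraries. The treatment of intronic reads was not given in the sources used here.

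Kept barcodes had at least 500 genes, at least 1000 UMIs and at most 10% mitochondrial UMIs. Removed as well were those with the highest Scrublet scores (scanpy 1.11.5; 0.8% per 1000 barcodes, a preset rate). Counts were summed per library and cell group and tested with edgeR 4.0.16 (R 4.3.3; TMM, filterByExpr, glmQLFit and glmQLFTest) at 0.05 after Benjamini-Hochberg adjustment across the whole table. SE is |log2 fold change| over the root of the F statistic. The paired fit of cell groups and the interaction had the library as a block. CPM are UMIs of a gene per 1000000 UMIs without TMM factors. Exact two-sided permutation over libraries was used for shares. Intervals (95%, exact Poisson or binomial) and the floor of 3 counts cover counting error only. The tests were checked on simulated data with 200 changed genes.

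Alternatives were DESeq2 1.42.0, no TMM factors, no filter, the replicate number as a block, leaving out each library, marker thresholds of 2 and 8, Tmem176a and Tmem176b alone, markers per 10000 UMIs, doublets kept, cells of other types removed and all deposited barcodes. A further 4 were chosen after seeing the data: removing cells with B cell or MHC class II RNA, removing the cell with most Il17a, marker-low cells with 0 marker UMIs, and crossed replicate numbers. From each gene list, up to 4 genes of lowest p per comparison could be named, and per member the 5 genes of most like pattern. Likeness left out receptor and immunoglobulin segments, H2, sex-linked and predicted genes and those under a mean of 20 CPM in marker-high cells. A further gene of the lists is not reported here and was left out of their counts. The members, lists and tests were chosen with earlier results of these data known.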

Additional observations from a re-analysis of the deposited data

Results flagged for a closer look

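The strain difference differed between marker-high and marker-low cells for 2 receptor genes in the test of the difference itself (edgeR interaction). For Il23r the interaction was -1.60 (log2), and for Il1r1 it was -1.55. Both BALB/c libraries lay above both B6 libraries in marker-low cells for each gene, whereas B6 1 was the lowest and B6 2 the highest of the 4 libraries in marker-high cells. Neither passed the adjusted threshold when marker-low cells were limited to those with 0 marker UMIs.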

How the results depend on the processing

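The higher level of Il23r, Il1r1, Il17re and Blk in marker-high cells kept its direction and call in each of 18 settings, with ranges over left-out libraries of 6.24 to 7.07, 5.74 to 6.43, 5.99 to 6.31 and 5.004 to 5.40 (log2), and the share of marker-high cells was higher in BALB/c by 6.68 to 13.9 points when 1 library was left out. The strain comparisons depended on the processing, and for those the cause was not tested. In marker-high cells (98 to 322 per library) the strain differences of Il23r, Il1r1, Il17re and Blk had standard errors of 0.16 to 0.35 (log2). The unit of these fits was the summed library, not the cell. Fits that leave out a library rest on the assumption that the lone library of a strain varies like the others.

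Genes called between strains in marker-high cells numbered 105, and 259 by DESeq2, 1056 with no filter on low counts, 165 with a threshold of 2, 164 with markers per 10000 UMIs, 305 without cells of other types, 355 without cells with B cell or MHC class II RNA, and 0 to 1209 with 1 library left out (0 without either BALB/c library, 1209 without B6 1, 440 without B6 2). In marker-low cells they were 1152, with 1791 by DESeq2 and 0 to 5365 with 1 library left out. Over all cells they were 937, with 1747 by DESeq2 and 0 to 5203 with 1 library left out. Between marker-high and marker-low cells they were 1814, and 968 to 1657 with 1 library left out. For the interaction they were 405, with 240 by DESeq2, 931 with no filter, 195 with a threshold of 8, 132 with Tmem176a and Tmem176b alone, 265 with markers per 10000 UMIs, 712 without cells with B cell or MHC class II RNA, and 218 to 833 with 1 library left out.

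In marker-high cells the strain difference of Blk was called by DESeq2 (0.65) and with no filter (0.69), and ranged from 0.51 to 0.80 with 1 library left out. That of Il17re was called with no filter (0.55). That of Il17a, with most UMIs from 1 cell, was 4.68 and called with no filter. Il1r1 ranged from -0.025 to 0.91 and Il23r from -0.47 to 0.67 with 1 library left out. Il23r turned to 0.32 with a threshold of 2, 0.23 with Tmem176a and Tmem176b alone, 0.024 with doublets kept and 0.021 with all deposited barcodes. In marker-low cells Il17re ranged from -0.31 to 0.13 with 1 library left out (0.13 without B6 1) and turned to 0.79 with a threshold of 8, 0.67 with Tmem176a and Tmem176b alone, 0.43 with markers per 10000 UMIs, 0.11 with doublets kept and 0.089 with all barcodes.

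The interaction turned to 0.025 for Blk with a threshold of 2. For Il17re it turned to -0.57 with a threshold of 8, -0.19 with Tmem176a and Tmem176b alone and -0.059 with markers per 10000 UMIs, and for Il17a it ranged from -1.40 (without BALB/c 2) to 9.17. The strain difference in the share of UMIs held by marker-high cells was within -3.24 to 3.56 points for Il23r, -3.92 to 4.64 for Il1r1 and -2.68 to 21.6 for Blk with 1 library left out. It turned to -0.46 (Il23r) and -0.44 (Il1r1) with doublets kept and to -0.63 (Il23r) with all barcodes. The thinned share with Il23r turned to -2.78 points with a threshold of 8.

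The replicate numbers 1 and 2 occur in both strains, but the labels do not say that they mark a shared animal or day, and deviations of same-numbered libraries had correlations of -0.48, -0.17 and -0.26 over genes in marker-high, marker-low and all cells. With the replicate number as a block, Il23r in marker-high cells was 0.083 and Il17a 5.06 (called), Blk had an adjusted p of 0.328, the calls over all cells were lost for Il1r1 (adjusted p = 0.0644) and Il23r (0.0914), and genes called were 113, 654 and 264 in marker-high, marker-low and all cells. With crossed numbers, called genes were 289, 1224 and 788, and Il23r was 0.053.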
